A study of Mus musculus with 2 samples.

Results

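Interferon-responding border-associated macrophages are brain macrophages that carried transcripts of a standard antiviral gene set at the moment of sorting. They were chosen from single cells by their unique molecular identifiers (UMIs, each standing for 1 captured mRNA molecule). A cell needed 1000 UMIs or more and 500 genes or more, with no more than 10% of its UMIs from mitochondrial genes. It had to hold at least 4 UMIs over the macrophage genes Mrc1, Pf4, Cd163 and Ms4a7, and at most 2 over the microglial genes P2ry12, Tmem119, Siglech and Sall1. It then had to hold at least 5 UMIs over the interferon-stimulated genes Ifit1, Ifit2, Ifit3, Isg15 and Rsad2. Of 3517 cells inside the macrophage gate, 281 met this last condition, out of 19161 cells that passed the filter and 36026 barcodes. They are called interferon BAMs here, and the remaining 3236 gated cells are called other BAMs.

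The study sorted mural cells, fibroblasts, endothelial cells, astrocytes, border-associated macrophages (CD11bhiF4/80+) and microglia from the whole brain of adult mice. It made 1 library with the 10x Genomics 3′ v3.1 kit from mice of genotype IL34LacZ/LacZ, and 1 from mice of genotype IL34LacZ/+. The IL34LacZ allele carries a lacZ reporter in Il34, the gene for interleukin-34, so both groups carry at least 1 altered copy and no wild-type mice are in the comparison. How many animals were pooled per library, their sex and exact age, and the mixing ratio of the sorted populations were not stated in the labels.

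Il34 was not lower in the library labelled homozygous. It held 453 UMIs in the 10349 filtered cells of the library labelled homozygous, or 7.56 CPM (UMIs scaled to a total of 1000000 per group of cells, exact Poisson 95% interval 6.88 to 8.29), and 339 UMIs in the 8812 filtered cells of the library labelled heterozygous, or 6.57 CPM (5.89 to 7.31). A 3′ kit reads the end of the transcript, and the labels do not say which piece of the gene the allele alters, so these counts leave the genotypes unchecked. The libraries are therefore called homozygous-labelled and heterozygous-labelled.

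Border-associated macrophages live in the perivascular spaces, the meninges and the choroid plexus and are known for scavenger receptors such as the mannose receptor Mrc1. They depend on the receptor CSF1R, whose ligands are interleukin-34 and CSF1. Type I interferons bind the receptor chains IFNAR1 and IFNAR2, the kinases JAK1 and TYK2 are activated, and a complex that holds STAT2 and IRF9 binds DNA at the interferon-stimulated response element. Interferon-gamma acts through another receptor and at other DNA elements, the gamma-activated sites. Both routes induce antiviral effectors, guanylate-binding GTPases, chemokines and the antigen presentation machinery.

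Interferon BAMs numbered 101 of 1764 gated BAMs in the homozygous-labelled library and 180 of 1753 in the heterozygous-labelled library. The homozygous-labelled library held 95505407 UMIs in 18858 barcodes with a median of 3838 UMIs per filtered cell, and the heterozygous-labelled library 87394167 UMIs in 17168 barcodes with a median of 3665.5. 103 barcode sequences occurred in both libraries and 30 of them passed the filter in both. No interferon BAM was among these in the homozygous-labelled library and 1 was in the heterozygous-labelled library, and no barcode was an interferon BAM in both. With 1 library per genotype no difference between the genotypes could be tested. Every interval below is an exact 95% interval that covers counting error only, and none covers the spread between animals.

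The promoters of the genes used to choose the cells, and of the chemokine gene Cxcl10, are shown because type I interferon is known to act through a DNA element of the kind marked in them. Each is the stretch of 250 bases before the RefSeq transcription start in GRCm38.p6, written 5′ to 3′ on the gene's strand. Capitals mark every match, on either strand, to 2 copies of GAAA separated by 2 bases of any kind, the repeat at the core of the interferon-stimulated response element.
Ifit1: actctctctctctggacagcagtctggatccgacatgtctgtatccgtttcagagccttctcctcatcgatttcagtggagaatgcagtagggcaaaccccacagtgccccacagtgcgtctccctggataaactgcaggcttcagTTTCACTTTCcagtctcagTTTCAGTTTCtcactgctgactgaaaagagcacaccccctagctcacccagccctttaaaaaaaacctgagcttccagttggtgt
Ifit3: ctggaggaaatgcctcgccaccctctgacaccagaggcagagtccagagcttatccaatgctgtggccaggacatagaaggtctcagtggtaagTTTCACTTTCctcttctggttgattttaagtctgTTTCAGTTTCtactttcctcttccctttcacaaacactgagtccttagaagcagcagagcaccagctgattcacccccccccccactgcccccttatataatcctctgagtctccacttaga
Isg15: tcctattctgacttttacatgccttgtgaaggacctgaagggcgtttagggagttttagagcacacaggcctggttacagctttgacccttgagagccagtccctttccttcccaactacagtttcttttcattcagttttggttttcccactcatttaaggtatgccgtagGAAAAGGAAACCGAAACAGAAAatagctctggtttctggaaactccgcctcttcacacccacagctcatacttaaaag
Rsad2: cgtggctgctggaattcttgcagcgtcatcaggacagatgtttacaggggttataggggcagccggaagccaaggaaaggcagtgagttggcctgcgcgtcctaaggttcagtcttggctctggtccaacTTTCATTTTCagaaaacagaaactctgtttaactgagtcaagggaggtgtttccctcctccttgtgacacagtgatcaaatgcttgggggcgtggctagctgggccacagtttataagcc
Cxcl10: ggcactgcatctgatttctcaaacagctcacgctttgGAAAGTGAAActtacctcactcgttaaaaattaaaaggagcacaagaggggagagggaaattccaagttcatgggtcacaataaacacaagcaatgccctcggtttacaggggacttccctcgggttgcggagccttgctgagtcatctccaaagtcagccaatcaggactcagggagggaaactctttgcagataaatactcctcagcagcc
Ifit1 lies on the plus strand of chromosome 19, and its window is chr19:34640639-34640888 with 2 matches, at 104 to 95 and at 85 to 76 bases before the start. Ifit3, also on the plus strand, has its window at chr19:34583279-34583528 with 2 matches. Isg15 has its window on the minus strand at chr4:156200819-156201068, where 3 overlapping matches run without a break from 78 to 57 bases before the start. The windows of Rsad2 (minus strand, chr12:26456453-26456702) and Cxcl10 (minus strand, chr5:92348890-92349139) hold 1 match each, which for Rsad2 starts 120 bases and for Cxcl10 213 bases before the transcription start. Ifit2 had 2 annotated starts and no match before either. Among all 27025 genes with a promoter sequence in the RefSeq table, 936 (3.46%) held this repeat in a window of the same length. A match is a description of the letters in this window and not evidence of a bound site.

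Of the genes used to choose the cells, Isg15, which encodes a ubiquitin-like modifier, was found most widely. It was detected in 89.1% of interferon BAMs of the homozygous-labelled library at 586 CPM, and in 87.2% of those of the heterozygous-labelled library at 651 CPM. Ifit3, of the same gene family as Ifit1, was found in 79.2% of homozygous-labelled cells at 549 CPM and in 85.0% of heterozygous-labelled cells at 497 CPM. Ifit1, whose protein binds RNA with a foreign cap, was found in 64.4% of homozygous-labelled cells at 304 CPM and in 57.2% of heterozygous-labelled cells at 215 CPM. Ifit2, another RNA-binding member of the family, was found in 56.4% of homozygous-labelled cells at 214 CPM and in 58.3% of heterozygous-labelled cells at 248 CPM. Rsad2, which encodes viperin, an enzyme that makes a chain-terminating nucleotide, was found in 64.4% of homozygous-labelled cells at 433 CPM and in 50.6% of heterozygous-labelled cells at 280 CPM. In other BAMs the same genes lay between 9.62 and 36.3 CPM in the homozygous-labelled library and between 11.7 and 52.1 CPM in the heterozygous-labelled library. These values chose the cells and are given as a description with no test.

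Most interferon BAMs carried several of the 5 genes at once, which the rule favours by asking for at least 5 UMIs over them. In the homozygous-labelled library 27 of the 101 cells held all 5 genes, 28 held 4, 27 held 3, 10 held 2 and 9 held a single one. In the heterozygous-labelled library 33 of the 180 cells held all 5, 48 held 4, 59 held 3, 35 held 2 and 5 held a single one. The summed count per cell had a median of 8 UMIs in both libraries, and reached 237 in the homozygous-labelled and 91 in the heterozygous-labelled library. The cells just inside the threshold numbered 20 at 5 UMIs and 12 at 6 UMIs in the homozygous-labelled library, and 34 and 24 in the heterozygous-labelled library. Just outside it stood 28 cells at 4 UMIs and 54 at 3 UMIs in the homozygous-labelled library, and 41 and 66 in the heterozygous-labelled library. The counts had no gap at the cut, so interferon BAMs are a range of this count. Whether they form a cell type of their own was not tested.

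Because the rule counts raw UMIs, it picked deeper cells. Interferon BAMs had a median of 6686 UMIs and 2389 genes in the homozygous-labelled library, against 3738 UMIs and 1669 genes in other BAMs. In the heterozygous-labelled library they had 5059.5 UMIs and 2024.5 genes, against 3323 UMIs and 1484 genes in other BAMs. Mitochondrial UMIs were slightly lower, at a median of 4.24% against 4.79% in the homozygous-labelled and 4.99% against 5.31% in the heterozygous-labelled library. Interferon UMIs per 10000 UMIs of a cell had a median of 14.3 in the homozygous-labelled and 19.1 in the heterozygous-labelled interferon BAMs.

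**Figure D1:**
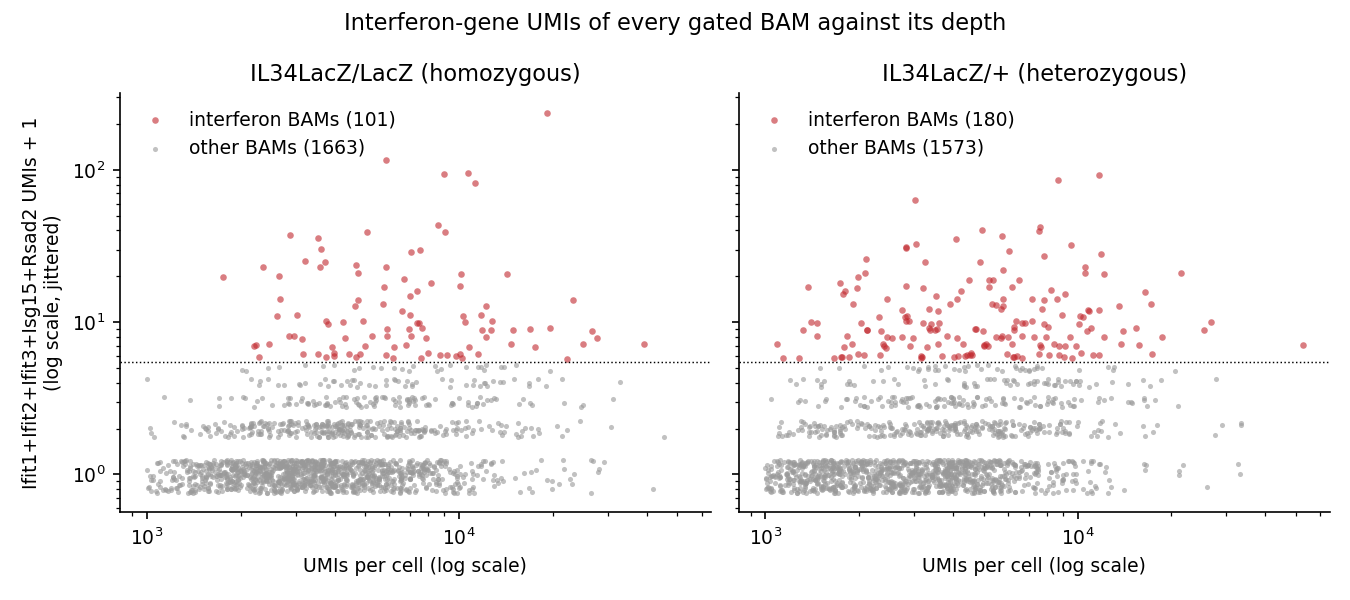
Each point is 1 gated BAM, with its total UMIs on the horizontal axis and its UMIs over the 5 interferon genes plus 1 on the vertical axis, both on log scales, and each panel is 1 library. Cells above the dotted line, with 5 or more UMIs, are the interferon BAMs, 101 in the homozygous-labelled (IL34LacZ/LacZ) and 180 in the heterozygous-labelled (IL34LacZ/+) library, and the homozygous-labelled library holds the cell with 237 UMIs.

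A smaller share of the gated BAMs were interferon BAMs in the homozygous-labelled library. The share was 5.73% (4.69 to 6.91) there, against 10.3% (8.89 to 11.8) in the heterozygous-labelled library. After each cell was thinned to 2000 UMIs, at least 5 UMIs remained in 37 of 1711 cells (2.16%, 1.53 to 2.97) of the homozygous-labelled and in 73 of 1538 cells (4.75%, 3.74 to 5.93) of the heterozygous-labelled library. Thinning applies the macrophage gate anew and leaves out shallower cells, which as counted were 265 homozygous-labelled and 430 heterozygous-labelled gated BAMs. At equal depth the homozygous-labelled share was again the lower one. The gap was smaller than as counted in percentage points but larger as a ratio. The log2 ratio of the shares, homozygous-labelled over heterozygous-labelled, was -1.13 thinned and -0.84 as counted. Cells that missed the gate as counted can enter it after thinning, so the sets of cells differ. At least 3 UMIs remained in 4.15% of thinned homozygous-labelled against 8.97% of thinned heterozygous-labelled cells, and at least 1 in 22.3% of homozygous-labelled against 30.1% of heterozygous-labelled cells.

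The upper end of the response did not part the libraries in the same way. Counts of at least 10 UMIs were found in 42 homozygous-labelled cells (2.38%, 1.72 to 3.20) and 70 heterozygous-labelled cells (3.99%, 3.13 to 5.02). Counts of at least 20 UMIs were found in 22 homozygous-labelled cells (1.25%, 0.783 to 1.88) and 24 heterozygous-labelled cells (1.37%, 0.879 to 2.03). The intervals of the 20-UMI share overlap over most of their length. Summed over all gated BAMs, with no cut on interferon genes, the 5 genes stood at 282 CPM (271 to 293) in the homozygous-labelled and 396 CPM (382 to 410) in the heterozygous-labelled library. Interferon BAMs held 68.5% of those UMIs in the homozygous-labelled and 70.9% in the heterozygous-labelled library.

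**Figure D2:**
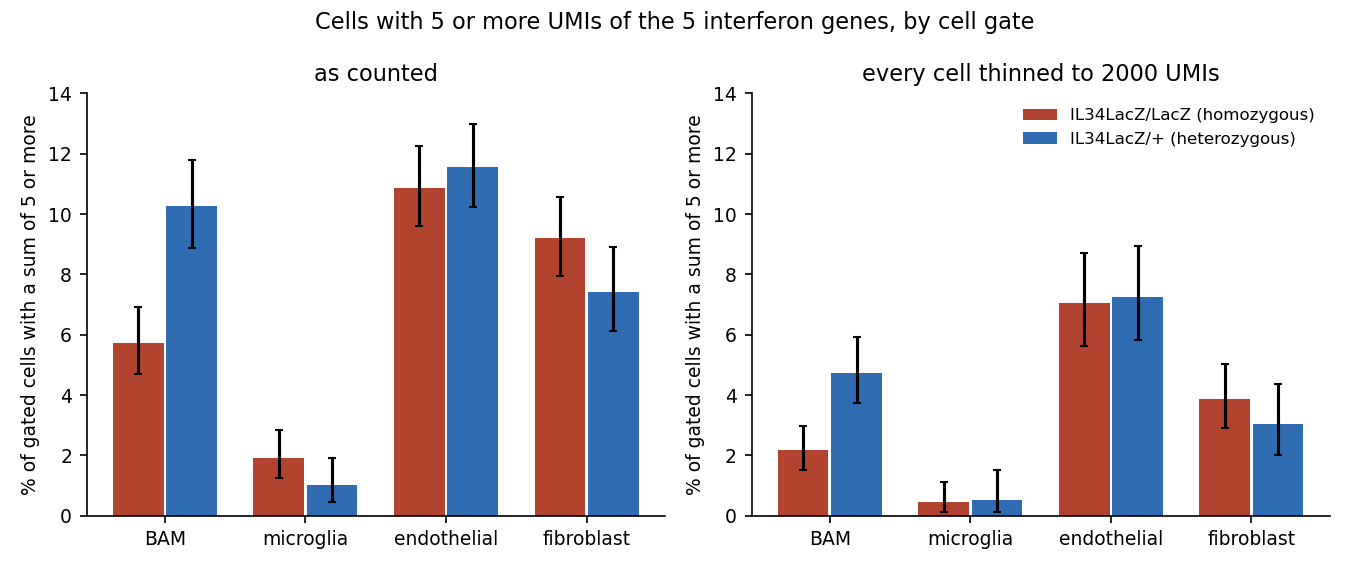
The bars give the percentage of gated cells with 5 or more UMIs of the 5 interferon genes in each of 4 cell gates, as counted and after every cell was thinned to 2000 UMIs, with exact binomial 95% intervals. Among BAMs the homozygous-labelled bar is below the heterozygous-labelled bar in both panels (5.73% against 10.3% as counted, 2.16% against 4.75% thinned), while the intervals of the 2 libraries overlap in the other gates, where the summed levels of the genes nevertheless differed in microglia and fibroblasts.

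Other sorted cells carried the same genes. Among gated endothelial cells, 10.9% of the homozygous-labelled and 11.5% of the heterozygous-labelled cells held at least 5 UMIs of the 5 genes, and after thinning 7.05% of homozygous-labelled and 7.26% of heterozygous-labelled ones. Gated fibroblasts gave 9.20% in the homozygous-labelled and 7.43% in the heterozygous-labelled library, and after thinning 3.86% in the homozygous-labelled and 3.03% in the heterozygous-labelled library. Gated microglia gave 1.93% (24 of 1245 cells, median 3466 UMIs) in the homozygous-labelled library, where gated BAMs had a median of 3825 UMIs. In the heterozygous-labelled library microglia gave 1.02% (9 of 886 cells, median 3172.5 UMIs), where gated BAMs had a median of 3474 UMIs. After thinning, microglia gave 0.440% in the homozygous-labelled and 0.521% in the heterozygous-labelled library, so the share in BAMs was above that of a neighbouring macrophage type at equal depth. Summed over all gated cells, the 5 genes also parted the libraries outside BAMs. Microglia had 120 CPM (112 to 129) in the homozygous-labelled and 199 CPM (185 to 213) in the heterozygous-labelled library, in the same direction as BAMs. The share of microglia with at least 5 UMIs, as counted, went the other way, with intervals that overlapped. Fibroblasts went the other way, at 513 CPM (502 to 526) in the homozygous-labelled and 287 CPM (277 to 298) in the heterozygous-labelled library. Endothelial cells had 508 CPM (493 to 523) in the homozygous-labelled and 532 CPM (516 to 548) in the heterozygous-labelled library, with intervals that overlapped. The make-up of these UMIs differed between some types. In the homozygous-labelled library Ifit2 was 10.1% of the 5 genes' UMIs in gated BAMs, 6.01% in microglia, 4.36% in fibroblasts and 2.99% in endothelial cells. In the heterozygous-labelled library it was 11.8% in gated BAMs, 13.9% in microglia, 4.58% in fibroblasts and 4.07% in endothelial cells.

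Macrophage markers beyond those of the rule were found in both libraries, in cells that the rule had already chosen on macrophage genes. Over 10 BAM markers not used by the rule, among them Lyve1, F13a1, Stab1 and Folr2, interferon BAMs had 6164 CPM against 8733 CPM in other BAMs of the homozygous-labelled library, and 7960 against 8778 CPM in the heterozygous-labelled library. At least 3 UMIs of these markers were found in 97.0% of homozygous-labelled and 99.4% of heterozygous-labelled interferon BAMs. All 10 pan-macrophage markers were detected, at a summed 14388 CPM against 17058 CPM in the homozygous-labelled and 17809 against 18224 CPM in the heterozygous-labelled library. Over 8 microglial markers not used by the rule, interferon BAMs had 1672 CPM against 1917 CPM in other BAMs of the homozygous-labelled library. They had 1830 against 2103 CPM in the heterozygous-labelled library. At least 3 UMIs of these were found in 90.1% of homozygous-labelled and 92.2% of heterozygous-labelled interferon BAMs. In other BAMs it was 85.9% and 81.2%, in the same order. Fcrls, among these markers, is also on the perivascular identity list used below. Of 8 T and NK cell markers, 7 were at 0 in homozygous-labelled interferon BAMs and 6 in heterozygous-labelled ones.

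Markers of other cells were also present and some moved with the interferon genes. The choroid plexus list was the most abundant, at 14305 CPM in interferon BAMs against 13974 CPM in other BAMs of the homozygous-labelled library, and 23977 against 19612 CPM in the heterozygous-labelled library. Most of it was Ttr, the transthyretin gene, which was found in every interferon BAM and in at least 99.7% of other BAMs. In interferon BAMs 3 cells held 89.9% of the homozygous-labelled and 80.3% of the heterozygous-labelled Ttr UMIs. Neutrophil markers stood at 11399 against 11945 CPM in the homozygous-labelled and 13313 against 6878 CPM in the heterozygous-labelled library. Some cells held at least 3 UMIs over endothelial, fibroblast, mural, choroid plexus (without Ttr), T, B or neutrophil markers. They made up 58.4% of interferon BAMs against 41.4% of other BAMs in the homozygous-labelled library, and 40.6% against 31.3% in the heterozygous-labelled library. Interferon BAMs were the deeper cells, and a deeper cell passes such a cut on raw UMIs more easily. Oligodendrocyte markers had 235 against 557 CPM in the homozygous-labelled library, yet 27.7% against 14.1% of cells held at least 3 UMIs. In the heterozygous-labelled library they had 482 against 585 CPM, and 19.4% against 14.2% of cells. All 11 monocyte markers were detected in interferon BAMs, at 813 CPM against 474 CPM in other BAMs in the homozygous-labelled and 419 against 253 CPM in the heterozygous-labelled library. All 8 endothelial markers were detected, at 950 against 592 CPM in the homozygous-labelled and 522 against 499 CPM in the heterozygous-labelled library. All 4 erythrocyte markers were detected, at 4947 against 3291 CPM in the homozygous-labelled and 8810 against 1702 CPM in the heterozygous-labelled library. A few cells carried these values, since 3 interferon BAMs held 93.5% of the homozygous-labelled and 98.0% of the heterozygous-labelled UMIs of the globin gene Hbb-bs. Scrublet called 13.9% of interferon BAMs doublets in each library, against 10.0% of homozygous-labelled and 9.28% of heterozygous-labelled other BAMs. The part of these cells and of free RNA in the results was not tested.

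Outside the genes of the rule, 116 of 11952 measured genes (0.971%) were at least 2-fold higher in interferon BAMs than in other BAMs in both libraries, with each interval above 1. In the other direction 13 genes (0.109%) were at least 2-fold lower. Measured genes are those with a total of 50 UMIs or more over all gated BAMs. The cells were chosen by measured interferon genes, so these counts describe the chosen cells and test nothing. Of the 116 genes, 77 belonged to a list used here and 39 to none. The median ratio over all measured genes was 0.998, with 28.3% of them above 1 and 26.3% below 1 in both libraries.

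No interferon gene was captured in the cells themselves. Over 21 interferon ligand genes, which include Ifnb1, the Ifna cluster and Ifng, the interferon BAMs of both libraries held 0 UMIs, which at this depth still allows up to 3 counts. Among all filtered cells Ifnb1, the first interferon made by many infected cells, had 28 UMIs in 2 homozygous-labelled cells, 24 of them in 1 cell outside the gates, and 1 UMI in the heterozygous-labelled library. Ifng, made by lymphocytes, had 29 UMIs in 16 homozygous-labelled and 14 UMIs in 9 heterozygous-labelled cells.

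Most receptor genes stood at like levels in interferon and other BAMs. None of 8 measured receptor and kinase genes was 2-fold higher or lower, and their median ratio was 0.985. Ifnar1 had 96.7 CPM against 102 CPM in other BAMs of the homozygous-labelled library, and 102 CPM against 102 CPM in other BAMs of the heterozygous-labelled library. Ifnar2, the high-affinity chain, had 214 CPM against 232 CPM in other BAMs of the homozygous-labelled library, and 188 CPM against 210 CPM in other BAMs of the heterozygous-labelled library. Il10rb, a chain shared by the receptors for interleukin-10 and interferon-lambda, was lower, at 209 CPM against 291 CPM in other BAMs of the homozygous-labelled library (0.718-fold, 0.612 to 0.838), and 224 CPM against 291 CPM in other BAMs of the heterozygous-labelled library (0.771-fold, 0.674 to 0.879).

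Some transcription factors of the pathway were higher in interferon BAMs and others had ratios near 1. Of 16 measured, 7 were at least 2-fold higher in both libraries, against 0.971% of all measured genes, and none lower. Irf7, the factor that amplifies type I interferon output, had 162 CPM in interferon BAMs against 21.1 CPM in other BAMs of the homozygous-labelled library (7.71-fold, 6.11 to 9.70), and 154 CPM against 24 CPM in other BAMs of the heterozygous-labelled library (6.43-fold, 5.16 to 8.02). Stat2, a subunit of the complex at the response element, had 128 CPM against 37.0 CPM in other BAMs of the homozygous-labelled library, and 95 CPM against 32.2 CPM in other BAMs of the heterozygous-labelled library. Irf9, the DNA-binding subunit of that complex, had 78.8 CPM against 63.5 CPM in other BAMs of the homozygous-labelled library (1.24-fold, 0.946 to 1.61), and 80.2 CPM against 65.5 CPM in other BAMs of the heterozygous-labelled library (1.22-fold, 0.967 to 1.54), so its intervals held 1. Irf8, a lineage factor of macrophages, had a ratio of 0.879 in the homozygous-labelled and 1.03 in the heterozygous-labelled library.

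Sensors of nucleic acid were higher as a group, with a median ratio of 2.24. Of 20 measured, 11 were at least 2-fold higher in both libraries, against 0.971% of all measured genes. Zbp1, a sensor of Z-form nucleic acid, had 75.2 CPM against 19.2 CPM in other BAMs of the homozygous-labelled library, and 119 CPM against 20.5 CPM in other BAMs of the heterozygous-labelled library. Ifih1, which encodes the RNA sensor MDA5, had 89.6 CPM against 26.9 CPM in other BAMs of the homozygous-labelled library, and 95.9 CPM against 26.4 CPM in other BAMs of the heterozygous-labelled library. Ddx58, which encodes RIG-I, had 116 CPM against 40.3 CPM in other BAMs of the homozygous-labelled library, and 121 CPM against 46.2 CPM in other BAMs of the heterozygous-labelled library. Ifi208, a member of the interferon-inducible p200 family, had 76.4 CPM against 9.74 CPM in other BAMs of the homozygous-labelled library (7.84-fold, 5.56 to 11), and 108 CPM against 17.5 CPM in other BAMs of the heterozygous-labelled library (6.19-fold, 4.76 to 8.05). Ifi204, of the same family, had 480 CPM against 206 CPM in other BAMs of the homozygous-labelled library, and 581 CPM against 245 CPM in other BAMs of the heterozygous-labelled library. The endosomal RNA receptor Tlr7 had a ratio of 0.910 in the homozygous-labelled and 0.904 in the heterozygous-labelled library.

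Antiviral effectors were the largest group of higher genes. Without the genes of the rule, 40 of 70 measured effectors were at least 2-fold higher in both libraries, against 0.971% of all measured genes. Of the 70, 62 lay above 1 in both, against 28.3% of all measured genes, and the median ratio was 2.57. Mx1, a GTPase that blocks influenza viruses, had 133 CPM against 7.43 CPM in other BAMs of the homozygous-labelled library (17.8-fold, 12.9 to 24.8), and 94.1 CPM against 11.1 CPM in other BAMs of the heterozygous-labelled library (8.49-fold, 6.25 to 11.6). Ifit3b, a near copy of Ifit3 whose reads may be shared with it, had 137 CPM against 8.65 CPM in other BAMs of the homozygous-labelled library, and 103 CPM against 13.1 CPM in other BAMs of the heterozygous-labelled library. Oas3, which makes the oligoadenylate that activates RNase L, had 43.0 CPM against 4.14 CPM in other BAMs of the homozygous-labelled library, and 35.7 CPM against 3.95 CPM in other BAMs of the heterozygous-labelled library. Cmpk2, a nucleotide kinase encoded beside Rsad2, had 64.5 CPM against 7.43 CPM in other BAMs of the homozygous-labelled library, and 63.6 CPM against 8.51 CPM in other BAMs of the heterozygous-labelled library. A smaller ratio was found for Ifitm3, which held far more UMIs. Ifitm3, a membrane protein that blocks viral entry, had 2035 CPM against 933 CPM in other BAMs of the homozygous-labelled library (2.18-fold, 2.07 to 2.30), and 2177 CPM against 1130 CPM in other BAMs of the heterozygous-labelled library (1.93-fold, 1.84 to 2.02).

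Among inhibitors of the pathway, 3 of 10 measured genes were at least 2-fold higher in both libraries, against 0.971% of all measured genes. The list's median ratio was 1.20, with 5 genes above 1 and 2 below 1 in both libraries. Usp18, which removes ISG15 and blocks signalling at IFNAR2, had 118 CPM against 17.1 CPM in other BAMs of the homozygous-labelled library (6.93-fold, 5.30 to 9.03), and 116 CPM against 23.2 CPM in other BAMs of the heterozygous-labelled library (4.99-fold, 3.92 to 6.33). Socs1, an inhibitor of JAK kinases, had 32.2 CPM against 6.33 CPM in other BAMs of the homozygous-labelled library, and 19.2 CPM against 6.68 CPM in other BAMs of the heterozygous-labelled library, but 1 cell gave 59.3% of its UMIs in homozygous-labelled interferon BAMs and 1 cell gave 54.5% in heterozygous-labelled ones. Socs3, induced mainly by cytokines of the interleukin-6 family, had a ratio of 0.396 (0.254 to 0.590) in the homozygous-labelled and 1.02 (0.799 to 1.28) in the heterozygous-labelled library.

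The GTPases that attack vacuoles of intracellular pathogens had the highest median of any list, at 3.07. Of 14 measured genes, 10 were at least 2-fold higher and all 14 above 1 in both libraries. The shares over all measured genes were 0.971% and 28.3%, in the same order. Iigp1 had 325 CPM against 84.4 CPM in other BAMs of the homozygous-labelled library (3.85-fold, 3.33 to 4.43), and 306 CPM against 41.9 CPM in other BAMs of the heterozygous-labelled library (7.30-fold, 6.22 to 8.58). Gbp2 had 86.0 CPM against 19.2 CPM in other BAMs of the homozygous-labelled library, and 47.1 CPM against 12.5 CPM in other BAMs of the heterozygous-labelled library. Gbp7 had 226 CPM against 167 CPM in other BAMs of the homozygous-labelled library, and 259 CPM against 167 CPM in other BAMs of the heterozygous-labelled library. These genes answer to interferon-gamma as well as to type I interferon. Interferon-gamma targets, a list that shares genes with the others, had a median ratio of 2.41. Of 14 measured, 8 were at least 2-fold higher in both libraries, against 0.971% of all measured genes.

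**Figure D3:**
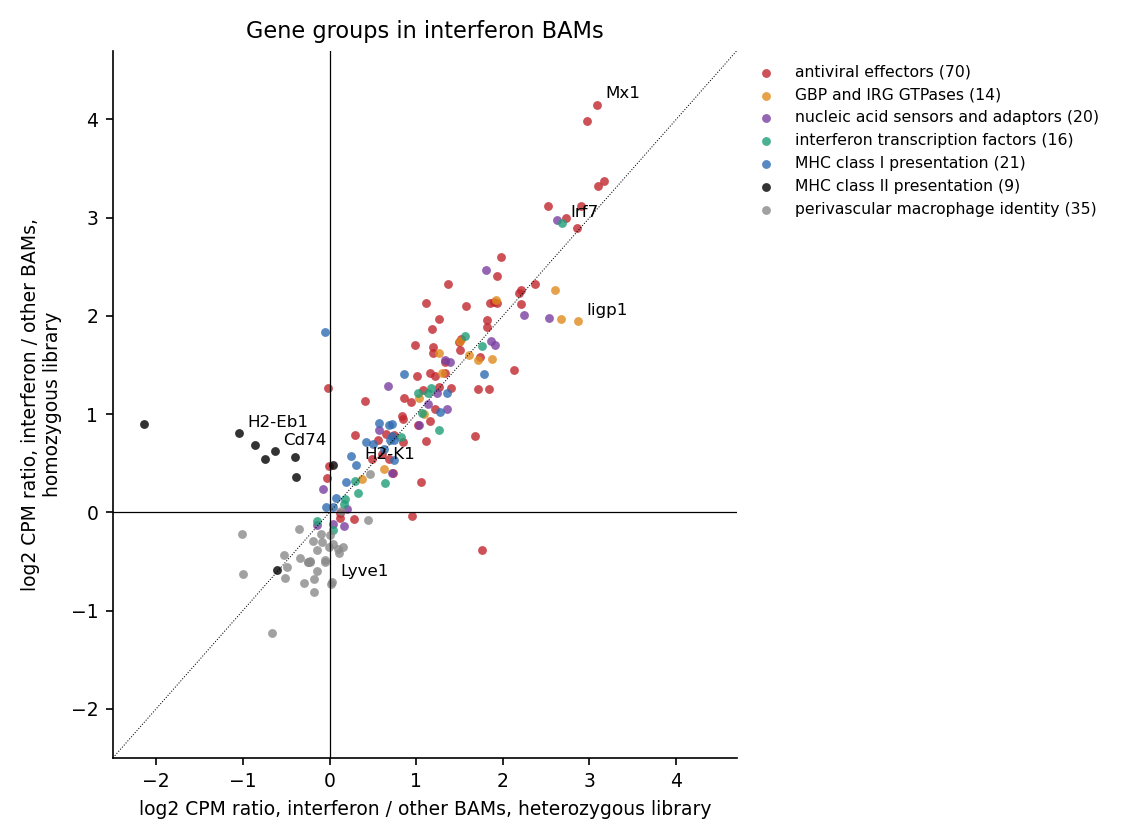
Each point is 1 gene of 7 lists, placed by its log2 CPM ratio of interferon BAMs over other BAMs in the heterozygous-labelled library on the horizontal axis and in the homozygous-labelled library on the vertical axis, with the genes of the rule left out and a dotted line at equal ratios. All 14 GTPases and most antiviral effectors lie above 0 on both axes, most perivascular identity genes lie below 0 on both, and most MHC class II genes lie above 0 in the homozygous-labelled library alone. A pair of genes, Retnla and Cd209d, falls outside the axes.

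Promoters of the higher genes held the GAAA repeat more often than promoters in general. It was found before the start of 28 of the 92 higher genes that have a promoter window (30.4%), against 3.40% of 9237 measured genes with a window, and before none of 8 lower genes. All 8 GTPase genes with a window held it, and so did 18 of 54 effectors (33.3%). The gamma-activated site, searched as TTC and GAA separated by 3 bases, was found in 9 of the 92 higher genes (9.78%), against 7.05% of measured genes with a window, and in 5 of the 8 GTPase genes. Both patterns were searched on both strands, and the second is a palindrome that reads alike on either. A match to one can overlap a match to the other. No factor's binding was measured.

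Among chemokines, some were found in few cells and others in most. Only Cxcl9 and Cxcl10, of 9 measured, were at least 2-fold higher in both libraries. Cxcl10, a ligand of CXCR3, a chemokine receptor of T cells, had 287 CPM against 16.8 CPM in other BAMs of the homozygous-labelled library (17.1-fold, 13.8 to 21.2), and 59.3 CPM against 10.9 CPM in other BAMs of the heterozygous-labelled library (5.42-fold, 3.83 to 7.66). It was found in 14 of 101 homozygous-labelled and 12 of 180 heterozygous-labelled interferon BAMs. Cxcl9, another CXCR3 ligand, had 339 CPM against 22.9 CPM in other BAMs of the homozygous-labelled library, and 16.6 CPM against 4.41 CPM in other BAMs of the heterozygous-labelled library. It was found in 8 homozygous-labelled cells, with 64.8% of its UMIs in 1 of them, and in 2 heterozygous-labelled cells, with 73.7% in 1 of them. Ccl12, a mouse attractant of monocytes, was found in 75.2% of homozygous-labelled and 79.4% of heterozygous-labelled interferon BAMs. It had 1331 CPM against 800 CPM in other BAMs of the homozygous-labelled library (1.66-fold, 1.56 to 1.77), and 2366 CPM against 820 CPM in other BAMs of the heterozygous-labelled library (2.89-fold, 2.75 to 3.02). Ccl8 had 764 CPM against 398 CPM in other BAMs of the homozygous-labelled library, and 758 CPM against 372 CPM in other BAMs of the heterozygous-labelled library, with 42.7% of the homozygous-labelled UMIs in 1 interferon BAM. None of 23 measured NF-kB-driven cytokines and chemokines was 2-fold higher in both libraries, and their median ratio was 1.01.

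MHC class I genes were modestly higher, with a median ratio of 1.64 and 19 of 21 genes above 1 in both libraries, against 28.3% of all measured genes. Tap1, which pumps peptides into the endoplasmic reticulum, had 84.8 CPM against 36.7 CPM in other BAMs of the homozygous-labelled library, and 70.6 CPM against 27.6 CPM in other BAMs of the heterozygous-labelled library. H2-K1, a class I heavy chain, had 1214 CPM against 870 CPM in other BAMs of the homozygous-labelled library, and 860 CPM against 694 CPM in other BAMs of the heterozygous-labelled library. B2m, the shared light chain, had a ratio of 1.11 in the homozygous-labelled and 1.06 in the heterozygous-labelled library. Only 2 genes of this list were at least 2-fold higher in both libraries.

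MHC class II genes went opposite ways in the libraries. The median log2 ratio of 9 genes, interferon BAMs over other BAMs, was 0.56 in the homozygous-labelled and -0.63 in the heterozygous-labelled library. H2-Eb1, a class II beta chain, had 1746 CPM against 999 CPM in other BAMs of the homozygous-labelled library (1.75-fold, 1.65 to 1.85), and 364 CPM against 751 CPM in other BAMs of the heterozygous-labelled library (0.485-fold, 0.438 to 0.536). Ciita, the master activator of class II genes, had 37.0 CPM against 20.1 CPM in other BAMs of the homozygous-labelled library, and 2.62 CPM against 13.4 CPM in other BAMs of the heterozygous-labelled library. These rested on 31 UMIs in homozygous-labelled and 3 UMIs in heterozygous-labelled interferon BAMs. The homozygous-labelled median was -0.29 with a cut at 10 interferon UMIs in place of 5, and the heterozygous-labelled median was -0.064 in cells thinned to 2000 UMIs and -1.38 with a mitochondrial limit of 5%. At least 50 class II UMIs per 10000 were found in 22 of 101 interferon BAMs (21.8%, 14.2 to 31.1) against 16.4% of other BAMs in the homozygous-labelled library. In the heterozygous-labelled library it was 22 of 180 (12.2%, 7.82 to 17.9) against 12.1% of other BAMs. The excess of such cells was within the counting interval in both.

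Genes of perivascular macrophage identity were lower in interferon BAMs, with a median ratio of 0.780 and 25 of 35 below 1 in both libraries, against 26.3% of all measured genes, while 1 was at least 2-fold lower in both. That gene, Cd209d, a C-type lectin, rested on 3 UMIs in homozygous-labelled and 1 UMI in heterozygous-labelled interferon BAMs. Lyve1, a hyaluronan receptor, had 357 CPM against 587 CPM in other BAMs of the homozygous-labelled library (0.609-fold, 0.540 to 0.684), but 719 CPM against 704 CPM in other BAMs of the heterozygous-labelled library (1.02-fold, 0.947 to 1.10). Folr2, a folate receptor, had 217 CPM against 362 CPM in other BAMs of the homozygous-labelled library, and 401 CPM against 396 CPM in other BAMs of the heterozygous-labelled library. Wfdc17, a secreted whey acidic protein gene, was lower in both and had 755 CPM against 1198 CPM in other BAMs of the homozygous-labelled library, and 789 CPM against 1129 CPM in other BAMs of the heterozygous-labelled library. The list's median log2 ratio was -0.48 in the homozygous-labelled and -0.18 in the heterozygous-labelled library. At least 3 UMIs of other cell types' markers, Ttr left out, were found in 58.4% of interferon BAMs against 41.4% of other BAMs in the homozygous-labelled library. In the heterozygous-labelled library it was 40.6% against 31.3%. The part of such cells and of depth in these medians was not tested.

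Of 7 measured genes of the interleukin-34 and CSF1 axis, 1 was at least 2-fold higher in both libraries, against 0.971% of all measured genes. The list's median ratio was 1.03, with 2 genes above 1 and 2 below 1 in both. Csf1, the other ligand of CSF1R, had 22.7 CPM against 8.04 CPM in other BAMs of the homozygous-labelled library (2.82-fold, 1.60 to 4.76), and 24.4 CPM against 5.62 CPM in other BAMs of the heterozygous-labelled library (4.34-fold, 2.56 to 7.29). It rested on 19 UMIs in 11 homozygous-labelled and 28 UMIs in 22 heterozygous-labelled interferon BAMs. In the homozygous-labelled ones 1 cell held 31.6% of these UMIs. Csf1r had 1093 CPM against 1477 CPM in other BAMs of the homozygous-labelled library (0.740-fold, 0.691 to 0.791), and 1364 CPM against 1488 CPM in other BAMs of the heterozygous-labelled library (0.917-fold, 0.869 to 0.967). Il34 had 6 UMIs in 6 homozygous-labelled interferon BAMs and 4 UMIs in 1 heterozygous-labelled one.

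Genes outside every list included further members of interferon-inducible families. Ifi206, Ifi213, Ifi47, Znfx1, Gvin2 and Gch1 were all at least 2-fold higher in both libraries. Ifi206, a p200 family gene, was found in 48.5% of homozygous-labelled and 44.4% of heterozygous-labelled interferon BAMs. It had 104 CPM against 14.4 CPM in other BAMs of the homozygous-labelled library (7.23-fold, 5.42 to 9.62), and 116 CPM against 21.0 CPM in other BAMs of the heterozygous-labelled library (5.53-fold, 4.33 to 7.07). Ifi47, an interferon-induced GTPase, had 154 CPM against 45.8 CPM in other BAMs of the homozygous-labelled library, and 153 CPM against 40.0 CPM in other BAMs of the heterozygous-labelled library. Znfx1, an RNA helicase, had 112 CPM against 45.2 CPM in other BAMs of the homozygous-labelled library, and 112 CPM against 44.7 CPM in other BAMs of the heterozygous-labelled library. The neutrophil granule genes Mpo, Elane and Prtn3 also ranked high, but at least 98.9% of their UMIs in interferon BAMs came from 1 cell in each library, so they describe single cells. Among the genes ranked lowest, Ptafr, the receptor for platelet-activating factor, had 87.2 CPM against 143 CPM in other BAMs of the homozygous-labelled library (0.609-fold, 0.474 to 0.771), and 82.8 CPM against 130 CPM in other BAMs of the heterozygous-labelled library (0.638-fold, 0.511 to 0.790). Lifr, a receptor chain for leukaemia inhibitory factor, had 52.5 CPM against 102 CPM in other BAMs of the homozygous-labelled library, and 70.6 CPM against 111 CPM in other BAMs of the heterozygous-labelled library. Gpr183, an oxysterol receptor, had 234 CPM against 373 CPM in other BAMs of the homozygous-labelled library, and 238 CPM against 319 CPM in other BAMs of the heterozygous-labelled library.

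Some genes outside the rule followed the interferon count in steps. In cells with 0, 1 to 4, 5 to 9, 10 to 19 and 20 or more UMIs of the rule genes, Usp18 had 13.3, 23.1, 52.1, 76.4 and 385 CPM in the homozygous-labelled library and 15.9, 33.6, 83.9, 135 and 218 CPM in the heterozygous-labelled library. Mx1 had 5.55, 10.4, 39.1, 111 and 475 CPM in the homozygous-labelled and 5.98, 18.3, 66.8, 94.9 and 206 CPM in the heterozygous-labelled library. Both genes were thus higher in each step, in both libraries, though some intervals of neighbouring steps overlapped. The same order was found for Oasl2, and for Ifit3b, whose reads may be shared with the rule gene Ifit3. In the top step the homozygous-labelled library stood above the heterozygous-labelled library for Usp18 and Mx1, on 22 homozygous-labelled and 24 heterozygous-labelled cells. The intervals of Usp18 overlapped there.

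Other genes did not follow the same steps. Irf7 had 125 CPM in the 5 to 9 step and 90.3 CPM in the 10 to 19 step of the homozygous-labelled library, with intervals that overlapped. Iigp1 had 125 CPM in the 1 to 4 step and 87.4 CPM in the 5 to 9 step of that library, where Gbp2 also had a lower value in the 10 to 19 step. All 3 were higher in each step of the heterozygous-labelled library. Ccl12 had 820, 768, 1025, 2104 and 1676 CPM in the homozygous-labelled library and 800, 848, 1584, 3054 and 4490 CPM in the heterozygous-labelled library. Cxcl10 stayed at or below 55.5 CPM in the first 4 steps of the homozygous-labelled library and had 1477 CPM in the last, against 171 CPM in the last step of the heterozygous-labelled library. Lyve1 had 128 CPM in the last step of the homozygous-labelled library, against 812 CPM in that of the heterozygous-labelled library. Class II genes were highest in the 5 to 9 step of the homozygous-labelled library, at a summed 13330 CPM, and lowest in the same step of the heterozygous-labelled library, at 2237 CPM.

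**Figure D4:**
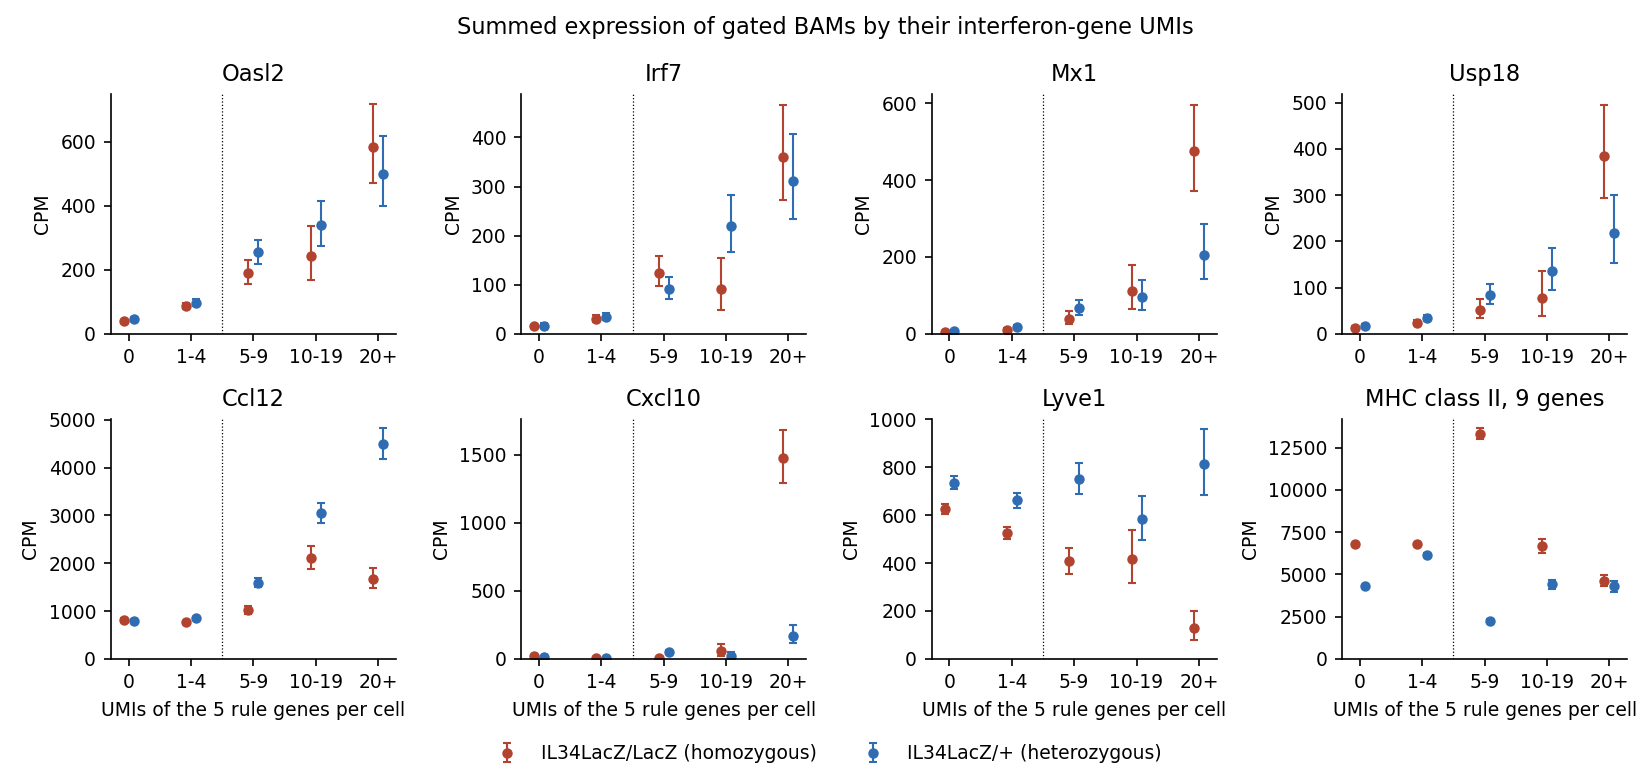
Summed CPM of 7 genes and of the 9 MHC class II genes in gated BAMs grouped by their UMIs over the 5 genes of the rule, for each library, with exact Poisson 95% intervals and a dotted line at the cut for interferon BAMs. Usp18, Mx1 and Oasl2 are higher in each step of both libraries and Irf7 in the heterozygous-labelled one alone, while Cxcl10 reaches 1477 CPM only in the last homozygous-labelled step, which holds 22 cells.

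Within interferon BAMs, the antiviral effectors had a median ratio near 1 between the libraries. The median ratio of 68 measured effectors, homozygous-labelled over heterozygous-labelled, was 1.01, with 36 above 1 and 32 below. Over all measured genes the median was 1.03, with 53.9% above 1 and 46.1% below. In other BAMs the same list had a median of 0.908. At the level of single genes 68 of 3206 measured genes (2.12%) were at least 2-fold higher and 28 (0.873%) at least 2-fold lower in the homozygous-labelled interferon BAMs, on at least 100 UMIs. Mx1 had a ratio of 1.41 (1.07 to 1.85) in interferon BAMs and 0.670 (0.469 to 0.954) in other BAMs, and Iigp1 had 1.06 (0.903 to 1.25) in interferon BAMs and 2.01 (1.75 to 2.32) in other BAMs.

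Chemokine and MHC class II genes were among those that differed between the libraries. Cxcl9 had 339 CPM in homozygous-labelled and 16.6 CPM in heterozygous-labelled cells (20.5-fold, 12.9 to 34.5), and without the top cell of each library 121 CPM in homozygous-labelled and 4.39 CPM in heterozygous-labelled cells. Cxcl10 had 287 CPM in homozygous-labelled and 59.3 CPM in heterozygous-labelled cells (4.83-fold, 3.68 to 6.43), and 10 of its 14 homozygous-labelled cells had at least 20 interferon UMIs. In each library 3 cells held most of its UMIs, 63.8% in the homozygous-labelled and 70.6% in the heterozygous-labelled one. Without the top cell of each library it had 214 CPM in homozygous-labelled and 35.8 CPM in heterozygous-labelled cells. Ccl12 went the other way, at 1331 CPM in homozygous-labelled and 2366 CPM in heterozygous-labelled cells (0.563-fold, 0.524 to 0.604), whereas in other BAMs its ratio was 0.975 (0.941 to 1.01). Of the 7 measured class II genes all lay above 1 and 6 were at least 2-fold higher, with a median ratio of 3.28, against 1.33 in other BAMs. Of all 8759 genes counted in the same way, 4720 lay above 1 and 306 were at least 2-fold higher. On the log2 scale the class II median was 1.72, and it was 0.51 with a cut at 10 interferon UMIs, 0.63 with a cut per 10000 UMIs and 0.60 in thinned cells. Among the class II genes H2-Eb1 had 1746 CPM in homozygous-labelled and 364 CPM in heterozygous-labelled cells (4.79-fold, 4.29 to 5.35). Cd74, the class II chaperone, had 4972 CPM in homozygous-labelled and 1520 CPM in heterozygous-labelled cells (3.27-fold, 3.09 to 3.46). Over the alternatives the log2 ratio of H2-Eb1 ran between 0.75 and 2.71 around 2.26, and that of Cxcl10 between 0.97, without cells holding other types' markers, and 3.31 around 2.27. Ccr2, the receptor that monocytes use to leave the blood, had 160 CPM in homozygous-labelled and 27.0 CPM in heterozygous-labelled cells (5.92-fold, 3.98 to 9.06), in 14 homozygous-labelled and 6 heterozygous-labelled cells, and was 1.29-fold higher in other BAMs. Monocyte markers, a list that includes Ccr2, were also higher in homozygous-labelled than in heterozygous-labelled interferon BAMs, at 813 against 419 CPM. They were higher in homozygous-labelled other BAMs too, at 474 against 253 CPM. At least 3 of their UMIs were found in 19.8% of homozygous-labelled against 7.78% of heterozygous-labelled interferon BAMs. In other BAMs it was 7.52% against 5.91%. The homozygous-labelled interferon BAMs were also the deeper ones, at a median of 6686 against 5059.5 UMIs. The part of monocytes and of depth in these differences was not tested.

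Identity genes were lower in the homozygous-labelled interferon BAMs, with 29 of 33 below 1, against 46.1% of all measured genes. Their median ratio was 0.802 in interferon BAMs and 0.970 in other BAMs. Lyve1 had 357 CPM in homozygous-labelled and 719 CPM in heterozygous-labelled cells (0.496-fold, 0.433 to 0.567), and its ratio in other BAMs was 0.833 (0.800 to 0.868). Folr2 had 217 CPM in homozygous-labelled and 401 CPM in heterozygous-labelled cells (0.542-fold, 0.454 to 0.645). Oxidative phosphorylation genes, which encode the respiratory chain, had a median ratio of 1.24, against 0.973 in other BAMs. In interferon BAMs 37 of these 39 genes lay above 1, against 53.9% of all measured genes. Csf1r had 1093 CPM in homozygous-labelled and 1364 CPM in heterozygous-labelled cells (0.801-fold, 0.737 to 0.870), and 0.993-fold in other BAMs.

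Several of the largest differences between the libraries were in genes typical of other cells and rested on few cells. Gh, the pituitary growth hormone gene, had 319 UMIs in homozygous-labelled and 0 in heterozygous-labelled interferon BAMs, of which 94.7% were in 1 cell, and it had 194 CPM in homozygous-labelled and 0 in heterozygous-labelled other BAMs. Among genes lower in the homozygous-labelled interferon BAMs, Hbb-bt, a globin gene of red cells, had 263 CPM in homozygous-labelled and 1182 CPM in heterozygous-labelled cells with 82.3% of the homozygous-labelled and 71.2% of the heterozygous-labelled UMIs in 1 cell each. The neutrophil gene Retnlg had 207 CPM in homozygous-labelled and 907 CPM in heterozygous-labelled cells, with 85.0% of the homozygous-labelled UMIs in 1 cell. Its log2 ratio of -2.13 turned to 0.95 with a cut at 10 interferon UMIs, 6.16 with a cut per 10000 UMIs and 0.71 in thinned cells.

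**Figure D5:**
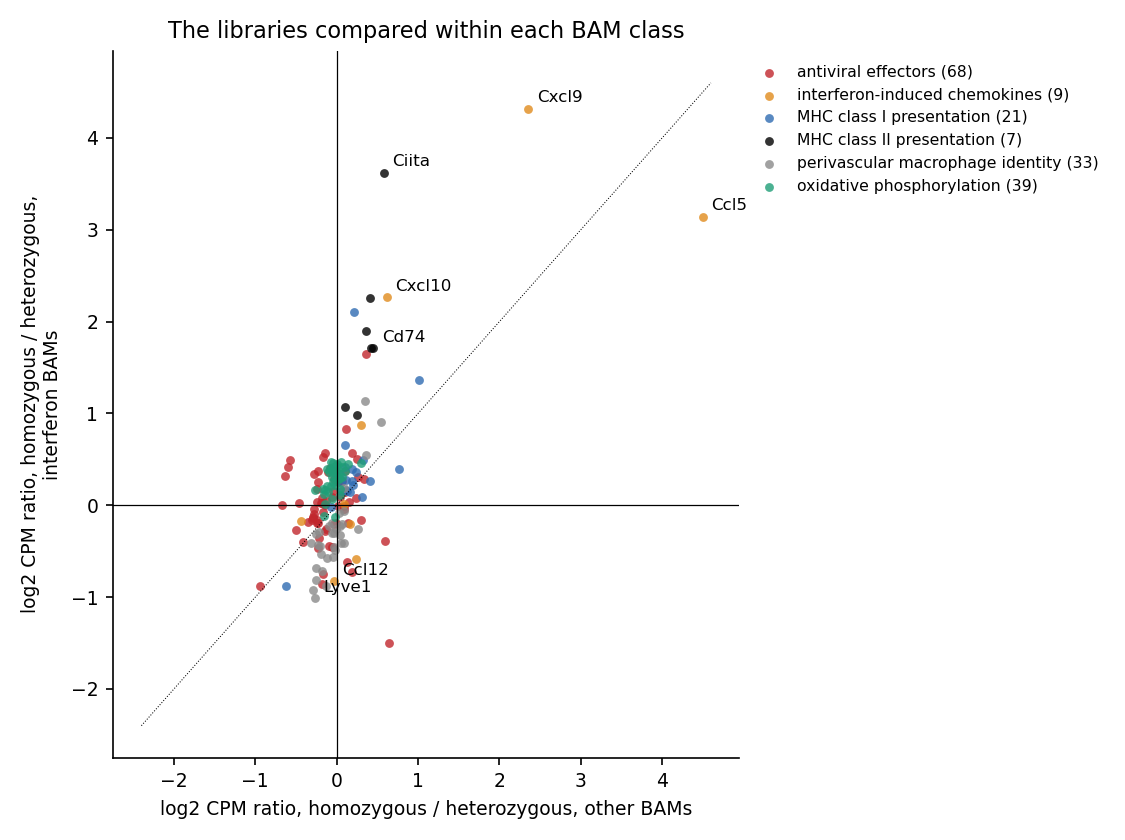
Each point is 1 gene, placed by its log2 CPM ratio of homozygous-labelled over heterozygous-labelled in other BAMs and in interferon BAMs, and the dotted line marks equal ratios. MHC class II genes lie above the line (median ratio 3.28 in interferon BAMs and 1.33 in other BAMs), while antiviral effectors scatter around 0 in interferon BAMs and lie mostly below 0 in other BAMs (median ratios 1.01 and 0.908).

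The response was unevenly spread over the cells. In the homozygous-labelled library 1 cell held 13.6% and the 5 top cells 35.5% of all rule-gene UMIs of the interferon BAMs, against 4.19% in 1 cell and 14.7% in 5 cells of the heterozygous-labelled library. The top homozygous-labelled cell had 237 of these UMIs, of which 69 were Ifit1, 66 Ifit3, 74 Isg15 and 28 Rsad2, and none was Ifit2. It also held 65 UMIs of Cxcl10 among 19156 UMIs in all, together with 44 UMIs of other cell types' markers. Another homozygous-labelled cell had 94 rule-gene UMIs, of which 77 were Rsad2, and 58 of Cxcl10, together with 30 UMIs of other cell types' markers. In the heterozygous-labelled library the top cell had 91 rule-gene UMIs, of which 61 were Isg15, and the third had 62 with 100 of Ccl12 and 27 of Cxcl10. Without the 5 top cells of each library the summed level of the rule genes over all gated BAMs differed by a log2 ratio of -0.73, homozygous-labelled over heterozygous-labelled, against -0.49 with them.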

How the data were processed

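The authors deposited 1 matrix of raw UMI counts for each library, written by Cell Ranger 5.0.0 per the file headers and made on build GRCm38.p6 (mm10) per the submitters' processing notes. No barcode had under 500 UMIs. How barcodes were selected was not stated in the labels, and all 25827 genes were used. No column was left without a sample, and 25702 gene identifiers (99.5%) were found in GENCODE vM21. Introns, if counted, and reads shared by near-identical genes would raise or split counts in a way the matrices do not show.

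Cells were filtered and gated by the rule given with the results. UMIs were summed per class and library and scaled to the class total (CPM). Levels carry exact Poisson, shares Clopper-Pearson and ratios conditional binomial 95% intervals. Genes were named by rule from the interferon lists (most UMIs or the largest ratio) and by rank outside the 22 lists (12 each way between classes, 8 each way between libraries), always with the genes of the rule, Il34, Csf1 and Csf1r. Genes named from other lists were chosen after their values were seen. Some genes that these rules would name are not reported here. Members and lists were chosen with earlier results of these data known. Doublets were called per library by Scrublet, told to expect 10%, and stayed in the main values. Ratios in lists needed 50 UMIs between classes and 20 between libraries. Promoters came from RefSeq, for 92 of the 116 higher genes. Python 3.11.15, numpy 2.4.6, scipy 1.17.1, pandas 2.3.3, scanpy 1.11.5 and matplotlib 3.10.9 were used. The alternatives changed 1 choice at a time: the interferon cut, depth, gates, filters, doublets, cells with other types' markers, top cells, weighting, normalization and the low-count filter.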

Additional observations from a re-analysis of the deposited data

How the results depend on the processing

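The lower share of interferon BAMs in the homozygous-labelled library kept its direction in all 11 alternatives, with a log2 ratio from -1.13 to -0.66 around -0.84. No paired analysis was possible because each genotype is 1 library with no replicate number. With a cut at 10 interferon UMIs, 180 genes were higher and 34 lower between classes (116 and 13 as reported), 45 differed between the libraries (96 as reported), and the median log2 ratios were 1.78 for effectors (1.36 as reported), 0.94 for MHC class I (0.72) and, between the libraries, 0.23 for effectors (0.01). With a cut per 10000 UMIs, 103 genes were lower, 25 differed between the libraries, effectors stood at 1.85 and 0.21, and identity genes at -0.031 (-0.36 as reported). Thinned cells gave 6 lower and 5 differing genes, 1.86 for effectors, 0.11 for MHC class II (-0.09 as reported) and -0.76 for the summed rule genes (-0.49). A microglial sum of 0 gave 56 differing genes, 0.37 for MHC class II, -0.60 for identity and -0.73 for the summed rule genes. A mitochondrial limit of 5% gave 53 differing genes and -0.60 for the summed rule genes, and a limit of 20% gave 20 lower genes. Without doublets 22 genes were lower. Without cells holding other types' markers 4 genes were lower, 19 differed, identity stood at -0.19, effectors between the libraries at 0.27 and the summed rule genes at -0.80. Without the 5 top cells the summed rule genes stood at -0.73. Equal weight per cell gave 39 lower genes, 1.67 for effectors and -0.72 for the summed rule genes. With no low-count filter 754 genes differed between the libraries.

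Of 673 values for 47 named results, 656 kept their direction, 103 of them with a move of over 1.5 times, and 17 turned. Between the libraries these moves took H2-Ab1, a class II beta chain, as low as 0.43 (1.90 with the settings used), Ccr2 between 1.93 and 3.42 (2.55) and Cxcl9 as low as 2.82 (4.32), all as log2 ratios. The homozygous-labelled MHC class II median (0.56) became -0.29 at 10 UMIs and -0.28 per 10000. Under the same pair of cuts Mpo became -2.84 and -3.43, Elane -4.56 and -5.15, Prtn3 -4.37 and -4.95, and Serpinb1a -0.078 and -2.23, all as log2 ratios. Nnat became 1.19 thinned and 0.10 without other types' markers, and Igkc 0.30 thinned. Between the libraries Retnlg became 0.95 at 10 UMIs, 6.16 per 10000 and 0.71 thinned, and Snhg11 0.36 without doublets. The cause of these turns was not tested. A count of 101 and 180 cells limits rare genes: 0 UMIs of a gene still allow 3 counts.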
